A study of Homo sapiens with 12 samples.

Results

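The genes described here make, activate, assemble, remodel, store, release and burn fatty acids. They are 40 listed genes of fatty acid synthesis, activation, glycerolipid assembly, remodelling, lipolysis and beta oxidation, found by symbol among the 54127 gene identifiers of the count files, where all 40 had a match. The cells were C4-2, a castration-resistant human prostate cancer line derived from LNCaP and grown in RPMI with 10% serum. A pool of siRNAs at 50 nM was introduced by reverse transfection, either against CHKA (siCHKA, 6 samples) or nontargeting (siNT, 6 samples), and RNA was sequenced from all 12 samples. Every sample of both groups had therefore received siRNA and transfection reagent, and no untransfected cells were compared. The labels number the replicates of a group but do not say whether they were separate cultures. The study's legends call them biological replicates, with a different number in different panels and no account of how the cultures were made. The p-values measure the spread between these samples. They treat the 6 samples of a group as independent and would be too small if some were not. The siCHKA libraries fell into sets, as described below.

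CHKA encodes choline kinase alpha, the first enzyme of the Kennedy pathway, which builds phosphatidylcholine from choline and diacylglycerol. The genes here supply the fatty acids and the diacylglycerol of such lipids. Acetyl-CoA made from citrate by ACLY or from acetate by ACSS2 is joined into palmitate by FASN, and SCD places a double bond in the chain. Acyl-CoA synthetases activate fatty acids. GPAT, AGPAT and lipin enzymes then add acyl chains to glycerol phosphate and yield diacylglycerol, which becomes phospholipid or, through DGAT1 and DGAT2, triglyceride. In the mitochondrion the carnitine palmitoyltransferases admit fatty acids to beta oxidation. Prostate cancer cells are known for active fatty acid synthesis and for androgen control of several of these enzymes.

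The targeted transcript was examined first. CHKA was at 1.91 CPM in the lowest, 2.31 CPM in the median and 4.67 CPM in the highest siCHKA sample, where CPM are counts scaled to library size after TMM normalization. In the siNT samples it was at 36.7, 41.6 and 43.3 CPM. All 6 siCHKA samples were below all 6 siNT samples, and the log2 fold change was -3.88 (SE 0.14, adjusted p = 5.89e-13 in edgeR's quasi-likelihood test with Benjamini-Hochberg adjustment over all tested genes, as for every adjusted p of a gene here).

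The libraries held 10685184 to 24246055 reads on genes. Taken as the floor of detection, 3 counts corresponded to between 0.124 and 0.281 CPM of those reads (counting error only). The floor is given without the TMM scaling of the other CPM here. The siCHKA libraries formed a pair of sets. Replicates 1, 3 and 5 differed among themselves by a chi-square per degree of freedom of 4.05 to 9.50 and replicates 2, 4 and 6 by 2.39 to 4.09, against 12.5 to 24.9 between the sets. This division was noticed in the data, and no label accounts for it. The siNT samples did not divide by these numbers and differed by as much. Their values were 5.29 to 30.9 among replicates 1, 3 and 5 and 7.62 to 12.4 among replicates 2, 4 and 6. Between those siNT replicates they were 2.51 to 23.8. For 47.5% of all tested genes the 2 sets did not overlap within siCHKA, and the same held for 24 of the 39 tested genes listed here. Replicates 1, 3 and 5 were the higher set for 19 of these 24 genes and for 3565 of the 6883 such genes overall (51.8%). For each listed gene whose call changed with the set, the values of both sets are therefore given below, each compared with the siNT samples of the same numbers. The numbers do not pair the samples. The set values therefore also carry the spread between the siNT samples used and do not describe siCHKA alone. The 6 prostate luminal and the 4 epithelial markers all passed the expression filter. Of markers of other cells, COL1A1, PDGFRB, CD68 and VWF passed it, no adipocyte marker did, and the T cell gene CD3E had no count in any sample, and their summed levels moved in both directions. After siCHKA the summed fibroblast markers were at 25.0 to 32.4 CPM (15.8 to 22.4 after siNT), leukocyte markers at 3.98 to 5.97 CPM (2.65 to 3.94), endothelial markers at 1.13 to 1.86 CPM (2.05 to 3.65) and adipocyte markers at 0.565 to 1.02 CPM (0.353 to 0.728). Luminal markers summed to 3838 to 5105 CPM after siCHKA and 4788 to 6178 CPM after siNT, and epithelial markers to 1060 to 1341 and 962 to 1118 CPM. The part of such cells or of changed marker expression in the results was not tested.

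Of the 40 genes, 39 passed the expression filter and were tested, and 14 fell, 12 rose and 13 did not pass an adjusted p of 0.05. The shares were 35.9% lower and 30.8% higher. Among all 14501 tested genes 30.1% were lower and 32.1% were higher, so the list as a whole was called about as often as any gene. Changes of at least 1.5-fold were fewer, with 2 genes lower (ACSS2 and GPAT3) and 2 higher (LIPE and ACSL1), where 11.3% of all tested genes were lower and 13.4% higher by that much. GPAT3 and LIPE were low and passed the filter through the group where they were higher, so their difference was partly a condition of being tested. Without them 13 of 37 genes were lower and 11 higher, 1 in each direction by at least 1.5-fold. The samples of the groups did not overlap for 17 of the 39 genes (43.6%), against 40.6% of all tested genes. Without GPAT3 and LIPE it was 15 of 37 genes (40.5%), about the share of all tested genes. The median log2 fold change was -0.01 for the list and 0.03 for all tested genes.

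By step the counts fell unevenly. In synthesis 4 of 6 genes fell and none rose, and in remodelling 4 of 7 fell and none rose. Activation had 2 of 3 genes higher and none lower. In oxidation 4 of 6 rose and 1 fell. Assembly had 5 of 13 lower and 5 higher, and in storage and lipolysis 1 of 4 tested genes, LIPE, rose. Median log2 fold changes were -0.39 for synthesis, -0.25 for remodelling, 0.52 for activation, 0.17 for oxidation, 0.18 for assembly and 0.03 for storage and lipolysis. These are counts over few genes, and no test compared one step with another. Beside them, 30.1% of all tested genes were lower and 32.1% higher. With replicates 1, 3 and 5 alone the synthesis count was 2 lower, and with replicates 2, 4 and 6 alone the oxidation count was 2 higher, the activation count 1 higher and storage and lipolysis had 2 lower.

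**Figure D1:**
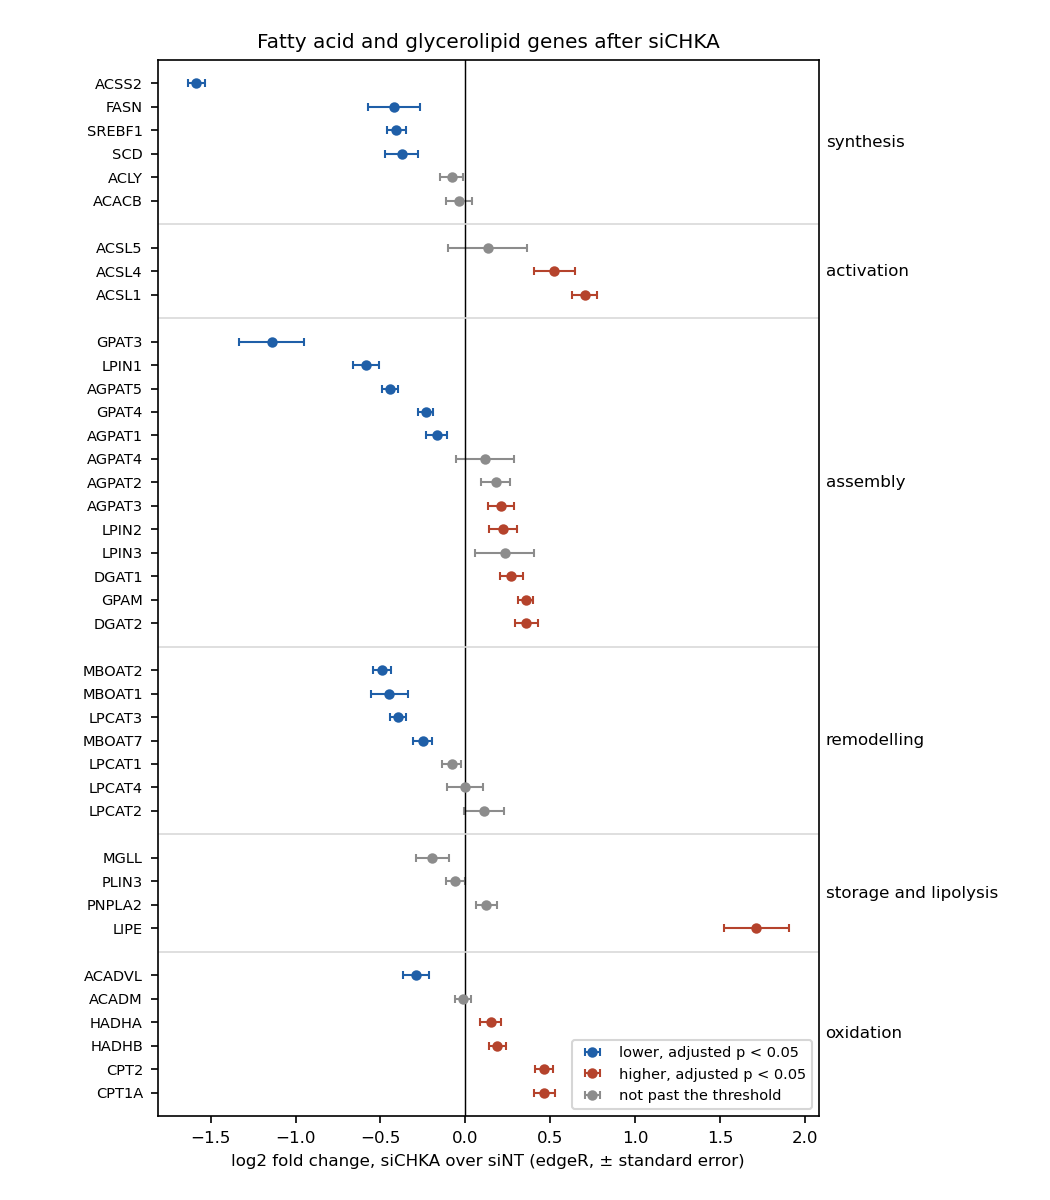
Log2 fold change of siCHKA over siNT for the 39 tested genes, grouped by step, with edgeR's estimate as the point and its standard error as the bar (6 samples per group). ACSS2 at -1.59 and GPAT3 at -1.14 lie farthest to the left and LIPE at 1.71 farthest to the right, with ACSL1 at 0.70 next to it.

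Synthesis held the clearest fall. ACSS2, the cytosolic enzyme that makes acetyl-CoA from acetate (ENSG00000131069, plus strand, chr20:34872146-34927962 in GRCh38), was at 20.9 CPM in the lowest, 21.9 CPM in the median and 23.2 CPM in the highest siCHKA sample. In siNT it was at 61.7, 66.1 and 70.3 CPM. The groups were far apart, with means of 21.9 ± 0.85 and 65.7 ± 3.35 CPM (SD, n = 6 each). This left 33.3% of the siNT level (log2 fold change -1.59, SE 0.05, edgeR adjusted p = 1.04e-13; exact permutation test, two-sided, p = 0.00216, the smallest that 6 against 6 samples allow). Both replicate sets gave nearly one value, -1.60 and -1.57. ACLY, which makes the same acetyl-CoA from citrate, was at 869 ± 92.0 and 919 ± 59.9 CPM and did not pass the test (log2 fold change -0.08, SE 0.07). Its change was 0.06 in replicates 1, 3 and 5 and -0.24 (adjusted p = 0.0168 in edgeR) in replicates 2, 4 and 6.

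SREBF1, the transcription factor that drives lipogenic genes (ENSG00000072310, minus strand, chr17:17810399-17837002), also separated the groups. The lowest, median and highest siCHKA samples were at 417, 467 and 483 CPM, and the siNT samples at 561, 601 and 667 CPM. Every siCHKA sample lay below every siNT sample, the log2 fold change was -0.41 (SE 0.06, edgeR adjusted p = 9.31e-06), and both replicate sets gave -0.41.

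FASN and SCD fell over all 6 samples, but their fall rested on one set of siCHKA libraries. FASN, the fatty acid synthase (ENSG00000169710, minus strand, chr17:82078338-82098294), ranged from 856 CPM through a median of 1178 to 1737 CPM after siCHKA and from 1473 through 1671 to 2064 CPM after siNT. The groups overlapped, because siCHKA replicates 1, 3 and 5 were at 1336 to 1737 CPM and replicates 2, 4 and 6 at 856 to 1020 CPM. The log2 fold change was -0.42 over all samples (SE 0.15, edgeR adjusted p = 0.0244; exact permutation test, two-sided, p = 0.0455). It was -0.12 (adjusted p = 0.386 in edgeR) in replicates 1, 3 and 5 and -0.82 (adjusted p = 2.22e-05 in edgeR) in replicates 2, 4 and 6. Without replicate 4 or without replicate 6, the FASN call was lost, at -0.37 and -0.33.

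SCD, the stearoyl-CoA desaturase (ENSG00000099194, plus strand, chr10:100347233-100364826), repeated that pattern. It ranged from 914 CPM through a median of 1128 to 1270 CPM after siCHKA and from 1245 through 1457 to 1600 CPM after siNT. Only the lowest siNT sample fell inside the siCHKA range. The log2 fold change was -0.37 (SE 0.10, edgeR adjusted p = 0.00269; exact permutation test, two-sided, p = 0.00866), with -0.15 (adjusted p = 0.107 in edgeR) in replicates 1, 3 and 5 and -0.63 (adjusted p = 1.41e-04 in edgeR) in replicates 2, 4 and 6. ACACB, the mitochondrial acetyl-CoA carboxylase, was at 14.8 ± 1.19 CPM after siCHKA and 15.1 ± 1.20 CPM after siNT and did not pass (log2 fold change -0.04, SE 0.07).

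Promoters of ACSS2, SCD and SREBF1 are shown because these genes fell in the step with the largest share of falls. FASN is the remaining gene of that kind. The windows run from before to just past a transcription start in RefSeq (GRCh38.p14), on the plus strand for ACSS2 and SCD and on the minus strand for SREBF1. A single window was used for each gene, and other starts were not searched. The ACSS2 window lies inside the GENCODE span of the gene, which begins upstream at 34872146. Capitals mark CCAAT, the box bound by the factor NF-Y that acts beside sterol regulatory elements, or its reverse ATTGG.
ACSS2, chr20:34874739-34875038: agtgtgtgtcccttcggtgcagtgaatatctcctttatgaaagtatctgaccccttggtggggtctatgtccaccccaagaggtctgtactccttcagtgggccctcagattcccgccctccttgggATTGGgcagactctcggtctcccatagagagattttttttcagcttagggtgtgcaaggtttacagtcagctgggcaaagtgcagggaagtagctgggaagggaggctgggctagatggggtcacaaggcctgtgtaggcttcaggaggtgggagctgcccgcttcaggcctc
SCD, chr10:100346983-100347282: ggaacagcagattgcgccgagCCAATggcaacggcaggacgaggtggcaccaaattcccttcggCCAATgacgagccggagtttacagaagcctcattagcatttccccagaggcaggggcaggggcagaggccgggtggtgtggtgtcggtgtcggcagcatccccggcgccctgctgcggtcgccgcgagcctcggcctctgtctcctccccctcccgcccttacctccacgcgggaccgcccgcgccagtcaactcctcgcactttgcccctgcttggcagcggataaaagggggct
SREBF1, chr17:17836937-17837236: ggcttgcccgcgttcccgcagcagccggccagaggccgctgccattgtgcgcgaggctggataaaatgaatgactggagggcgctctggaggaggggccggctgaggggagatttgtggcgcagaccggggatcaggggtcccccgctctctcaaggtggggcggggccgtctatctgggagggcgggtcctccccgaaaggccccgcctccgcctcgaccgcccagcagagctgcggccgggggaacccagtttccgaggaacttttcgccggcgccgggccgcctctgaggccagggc
SCD held CCAAT at -229 and -186 from the start, and ACSS2 held it on the opposite strand at -123, while SREBF1 held none. ACLY, which did not pass the test, held it at -65 and -23. Searched on both strands, CCAAT was in 10 of the 31 listed genes with a promoter in the table (32.3%) and in 35.7% of all 27305 promoters. The sterol regulatory element core TCACNCCA was in 3 of 31 (9.68%), those of ACADVL, PLIN3 and PNPLA2, against 3.93% of all promoters. The E-box CACGTG was in 1 of 31, that of PLIN2, against 7.43%. Neither TCACNCCA nor CACGTG occurred in the windows of ACSS2, SCD and SREBF1, which says only that these letters are not there.

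Of the 3 activation genes 2 rose. ACSL1, an acyl-CoA synthetase of long chains (ENSG00000151726, minus strand, chr4:184755595-184826818), was at 964, 1065 and 1214 CPM in the lowest, median and highest siCHKA samples. The siNT samples were at 605, 644 and 760 CPM. No sample overlapped, and the level was 163% of siNT (log2 fold change 0.70, SE 0.07, edgeR adjusted p = 2.69e-07). The rise was 0.88 in replicates 1, 3 and 5 and 0.51 in replicates 2, 4 and 6. ACSL4, which prefers arachidonate (ENSG00000068366, minus strand, chrX:109624244-109733403), was at 9.51, 10.8 and 13.8 CPM after siCHKA and 6.71, 7.16 and 10.7 CPM after siNT. Its groups overlapped through 1 high siNT sample, replicate 4, and its log2 fold change was 0.52 (SE 0.12, edgeR adjusted p = 0.00121). In replicates 1, 3 and 5 it was 0.84, and in replicates 2, 4 and 6 it was 0.22 and did not pass (adjusted p = 0.217 in edgeR). ACSL5 was near the detection floor at 0.62 ± 0.14 and 0.54 ± 0.17 CPM, with 4 to 14 counts in any sample, and did not pass the test.

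Assembly parted within its families rather than moving one way. The first acylation of glycerol 3-phosphate is done by GPAM in the mitochondrion and by GPAT3 and GPAT4 in the endoplasmic reticulum. GPAT3 (ENSG00000138678, plus strand, chr4:83535914-83605875) was at 0.32, 0.42 and 0.54 CPM in the lowest, median and highest siCHKA samples and at 0.86, 0.99 and 1.12 CPM in siNT. It met the filter's 0.568 CPM in 0 siCHKA and 6 siNT samples and so was tested only through its higher group, and counts were 4 to 11 after siCHKA and 9 to 20 after siNT. The log2 fold change of -1.14 (SE 0.19) is therefore a description. Fitted without any filter, which removes that condition, it was -1.17 (edgeR adjusted p = 4.15e-04). That is a refit of the same low counts, for a gene picked by its change, and is not separate support. GPAT4 fell slightly, from 108 ± 3.17 to 92.3 ± 4.77 CPM (log2 fold change -0.23, SE 0.05, edgeR adjusted p = 2.76e-04). GPAM rose, from 97.7 ± 3.45 to 125 ± 5.83 CPM, with no overlap between groups (log2 fold change 0.35, SE 0.05, edgeR adjusted p = 3.45e-06).

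Within each sample, log2 GPAM minus log2 GPAT4 went from -0.15 ± 0.04 in siNT to 0.44 ± 0.05 in siCHKA (SD, n = 6 each). This is a change of 0.59, with a 95% interval of 0.53 to 0.65 (exact permutation test, two-sided, p = 0.00216, and 0.00722 adjusted over 30 pairs). The mitochondrial and the reticular enzyme exchanged rank in CPM: GPAM was below GPAT4 before and above it after. On the scale of CPM per kilobase of exon, their log2 difference went from -0.46 to 0.13. The pairs with GPAT3 carry the condition above and are given as values only, 1.36 for GPAM against GPAT3 and -0.77 for GPAT3 against GPAT4.

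AGPAT enzymes add the second acyl chain. AGPAT5 fell, from 88.9, 95.6 and 97.6 CPM in the lowest, median and highest siNT samples to 64.2, 69.7 and 74.5 CPM in siCHKA. The groups did not overlap (log2 fold change -0.44, SE 0.05, edgeR adjusted p = 4.98e-07). AGPAT1 was called lower by -0.17 (48.2 ± 3.97 to 43.0 ± 2.94 CPM, edgeR adjusted p = 0.0253) and AGPAT3 higher by 0.21 (117 ± 9.06 to 135 ± 17.6 CPM, edgeR adjusted p = 0.0278). Neither call held throughout. The AGPAT1 call was lost without replicate 1, 3 or 4 (-0.17, -0.16 and -0.13) and the AGPAT3 call without replicate 1, 3 or 5 (0.16, 0.18 and 0.17). AGPAT1 was at -0.11 in replicates 1, 3 and 5, where it did not pass, and at -0.24 in replicates 2, 4 and 6. AGPAT3 was at 0.38 in the first set and at 0.02 in the second, where it did not pass. Of the exon bases of AGPAT1, 30.5% are shared with other genes, mostly on the opposite strand, and the strand setting of the counting is not given. AGPAT2 (18.0 ± 1.96 to 20.3 ± 2.24 CPM) and AGPAT4 (1.33 ± 0.20 to 1.47 ± 0.32 CPM) did not pass. AGPAT5 fell relative to each of the other AGPAT genes, by 0.65 against AGPAT3, 0.62 against AGPAT2, 0.56 against AGPAT4 and 0.28 against AGPAT1, all 4 past the test of the difference (exact permutation tests, adjusted p from 0.00722 to 0.0295 over 30 pairs).

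Lipins remove the phosphate of phosphatidic acid and give diacylglycerol. LPIN1 (ENSG00000134324, plus strand, chr2:11677595-11827409) was at 93.1, 106 and 124 CPM in the lowest, median and highest siCHKA samples and at 147, 151 and 184 CPM in siNT. No sample overlapped, and the log2 fold change was -0.58 (SE 0.08, edgeR adjusted p = 4.28e-06), with -0.47 and -0.71 in the 2 replicate sets. LPIN2 was called higher, from 48.3 ± 6.97 to 56.1 ± 4.67 CPM (log2 fold change 0.22, SE 0.08, edgeR adjusted p = 0.0303), though replicates 1, 3 and 5 gave 0.35 and replicates 2, 4 and 6 gave 0.09 and did not pass, and the call was lost without replicate 1, 2 or 3 (0.18, 0.22 and 0.14). The log2 difference LPIN1 minus LPIN2 fell by 0.81, with a 95% interval of -0.93 to -0.68 (exact permutation test, two-sided, adjusted p = 0.00722). LPIN3 had no single direction. It was at 13.0 to 17.6 CPM in siCHKA replicates 1, 3 and 5, at 24.9 to 26.6 CPM in replicates 2, 4 and 6, and at 13.1 to 20.1 CPM in siNT. The fold change was 0.23 over all samples and did not pass (adjusted p = 0.264 in edgeR), -0.32 (adjusted p = 0.0365) in the first set and 0.65 (adjusted p = 7.39e-04) in the second.

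DGAT1 and DGAT2 make triglyceride from diacylglycerol by unrelated proteins, and both rose. DGAT2 (ENSG00000062282, plus strand, chr11:75759512-75801535) was at 28.5, 29.9 and 31.6 CPM in the lowest, median and highest siCHKA samples and at 20.4, 22.8 and 27.3 CPM in siNT. The log2 fold change was 0.36 (SE 0.07, edgeR adjusted p = 1.74e-04). DGAT1 went from 19.0 ± 1.93 to 23.1 ± 1.17 CPM (log2 fold change 0.27, SE 0.07, edgeR adjusted p = 0.00258), and its groups did not overlap either. Of its exon bases 11.1% are shared with other genes, mostly on the same strand (10.9%). The DGAT1 change was 0.19 and did not pass (adjusted p = 0.0767 in edgeR) in replicates 1, 3 and 5 and 0.34 (adjusted p = 0.0105) in replicates 2, 4 and 6. The siCHKA sets themselves overlapped for DGAT1, at 21.9 to 23.6 and 22.4 to 25.0 CPM. The difference between the DGAT genes changed by -0.08 (95% interval -0.35 to 0.18) and did not pass, an interval that leaves room for a shift of about the size of either rise.

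**Figure D2:**
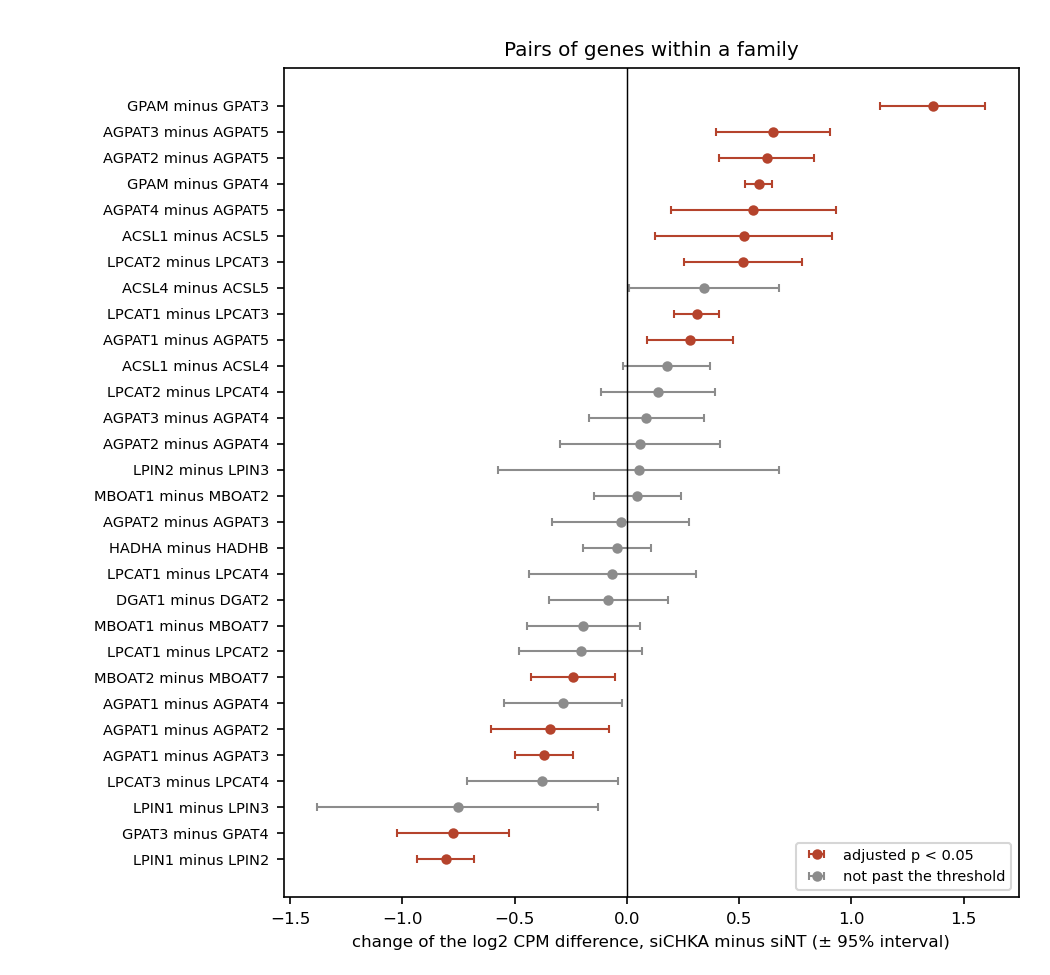
Change after siCHKA of the log2 CPM difference between 2 genes of one family, siCHKA minus siNT, for 30 pairs, with 95% intervals and with red for an adjusted p below 0.05 in the exact permutation test. Of the pairs 14 passed. GPAM minus GPAT4 lies at 0.59 and LPIN1 minus LPIN2 at -0.81, and the pairs with GPAT3 rest on a gene tested only through its siNT samples.

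Remodelling enzymes exchange the acyl chain in the middle position of phospholipids, and those that changed fell. MBOAT2, which adds oleate to lysophospholipids (ENSG00000143797, minus strand, chr2:8852690-9003709), was at 214, 226 and 246 CPM in the lowest, median and highest siCHKA samples and at 296, 319 and 355 CPM in siNT. The groups were apart (log2 fold change -0.49, SE 0.05, edgeR adjusted p = 3.92e-07), with -0.44 and -0.55 in the replicate sets. MBOAT1, its relative with a preference for lysophosphatidylserine, was at 3.14, 3.85 and 4.11 CPM after siCHKA and 4.28, 5.00 and 5.98 CPM after siNT (log2 fold change -0.45, SE 0.11, edgeR adjusted p = 0.00204). In replicates 1, 3 and 5 it was -0.28 and did not pass (adjusted p = 0.144 in edgeR), and in replicates 2, 4 and 6 it was -0.61.

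LPCAT3, which puts polyunsaturated chains into phosphatidylcholine, was at 88.5, 94.2 and 104 CPM after siCHKA and 121, 126 and 127 CPM after siNT. The groups did not overlap (log2 fold change -0.40, SE 0.05, edgeR adjusted p = 1.24e-06). However, 66.0% of its exon bases lie opposite those of EMG1 in GENCODE 44, and without the strand setting the genes cannot be fully told apart. MBOAT7, which handles lysophosphatidylinositol, was at 93.9, 101 and 112 CPM after siCHKA and 111, 122 and 130 CPM after siNT. Its groups touched at their edges (log2 fold change -0.25, SE 0.05, edgeR adjusted p = 6.57e-04; exact permutation test, two-sided, p = 0.00433).

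The other lysophosphatidylcholine acyltransferases did not pass. LPCAT1 was at 118 ± 10.1 and 125 ± 5.03 CPM (log2 fold change -0.08), with 0.05 in replicates 1, 3 and 5 and -0.22 (adjusted p = 0.00808 in edgeR) in replicates 2, 4 and 6. LPCAT4 was at 29.6 ± 5.42 and 29.7 ± 2.85 CPM, a fold change near 0 that joined -0.24 (adjusted p = 0.0274 in edgeR) in the first set and 0.19 in the second. LPCAT2 was at 4.00 ± 0.36 and 3.70 ± 0.57 CPM. LPCAT3 fell relative to LPCAT1, whose log2 difference over LPCAT3 grew by 0.31 (95% interval 0.21 to 0.41; exact permutation test, two-sided, adjusted p = 0.00722).

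In storage and lipolysis LIPE alone was called, at a low level and with the same condition as GPAT3. LIPE, the hormone-sensitive lipase (ENSG00000079435, minus strand, chr19:42401514-42427388), was at 1.45, 1.80 and 2.42 CPM in the lowest, median and highest siCHKA samples and at 0.43, 0.55 and 0.73 CPM in siNT. It met the filter's 0.568 CPM in 6 siCHKA samples and 1 siNT sample, so it was tested through its higher group, and the log2 fold change of 1.71 (SE 0.19) is a description. Without any filter it was 1.68 (edgeR adjusted p = 3.89e-08), again a refit of the same low counts and not separate support. Counts were 20 to 50 after siCHKA and 6 to 17 after siNT, and 9.69% of its exon bases lie opposite LIPE-AS1. Both replicate sets gave a rise, of 1.65 and 1.74.

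The other lipases were expressed more and did not pass. PNPLA2, the adipose triglyceride lipase that acts before LIPE, was at 46.5 ± 3.73 and 42.7 ± 2.80 CPM after siCHKA and siNT (log2 fold change 0.12). MGLL, which cleaves monoglycerides, was at 17.5 ± 2.11 and 20.0 ± 2.65 CPM (log2 fold change -0.19) and passed in replicates 2, 4 and 6, at -0.35 (adjusted p = 0.0374 in edgeR), but not in replicates 1, 3 and 5, at -0.04. PLIN3, a droplet coat protein made in most cells, was at 83.2 ± 7.52 and 86.6 ± 2.67 CPM (-0.06), with 0.05 in replicates 1, 3 and 5 and -0.18 (adjusted p = 0.0280 in edgeR) in replicates 2, 4 and 6. PLIN2, the coat protein that usually marks droplets, did not pass the filter, with 1 to 15 counts per sample and 0.30 ± 0.22 and 0.35 ± 0.17 CPM, which includes the floor.

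Oxidation rose at its entry. CPT1A, the outer carnitine palmitoyltransferase that sets the rate of entry (ENSG00000110090, minus strand, chr11:68754620-68844410), was at 490, 508 and 534 CPM in the lowest, median and highest siCHKA samples and at 309, 373 and 408 CPM in siNT. CPT2, its inner membrane partner (ENSG00000157184, plus strand, chr1:53196792-53214197), was at 100.1, 111 and 122 CPM after siCHKA and 75.5, 82.1 and 83.9 CPM after siNT. For both genes every siCHKA sample exceeded every siNT sample. The log2 fold change was 0.47 for CPT1A (SE 0.06, edgeR adjusted p = 3.92e-06). It was 0.46 for CPT2 (SE 0.06, edgeR adjusted p = 1.37e-06), of whose exon bases 12.4% lie opposite those of other genes. The replicate sets gave 0.41 and 0.52 for CPT1A and 0.60 and 0.31 for CPT2. For CPT1A the siCHKA sets themselves overlapped, at 490 to 534 and 498 to 511 CPM.

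Among the remaining listed genes of oxidation the changes were smaller and of both signs. Larger changes in the wider list, also of both signs, are given below. ACADVL, the dehydrogenase of very long chains, was at 229, 275 and 308 CPM in the lowest, median and highest siCHKA samples and at 315, 326 and 353 CPM in siNT. It fell (log2 fold change -0.29, SE 0.08, edgeR adjusted p = 0.00356), with -0.44 in replicates 1, 3 and 5 and -0.17 in replicates 2, 4 and 6, both past the threshold. HADHB, the beta subunit of the trifunctional protein, was at 193, 207 and 221 CPM after siCHKA and 171, 179 and 198 CPM after siNT (log2 fold change 0.19, SE 0.05, edgeR adjusted p = 0.00358). It was 0.22 in replicates 1, 3 and 5, and 0.15 in replicates 2, 4 and 6, where it did not pass (adjusted p = 0.0850 in edgeR). HADHA, the alpha subunit, was at 301 ± 29.1 and 272 ± 13.8 CPM (log2 fold change 0.15, edgeR adjusted p = 0.0483), and its call held under 4 of 14 alternative settings. It was 0.26 (adjusted p = 0.00582) in replicates 1, 3 and 5 and 0.03 (adjusted p = 0.727) in replicates 2, 4 and 6 by edgeR, and the call was lost without any one replicate number other than 4 (0.10 to 0.17). The difference between the subunits changed by -0.04 (95% interval -0.19 to 0.11). ACADM, the dehydrogenase of medium chains, was at 106 ± 4.87 and 108 ± 5.73 CPM and did not pass (log2 fold change -0.01, SE 0.05).

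**Figure D3:**
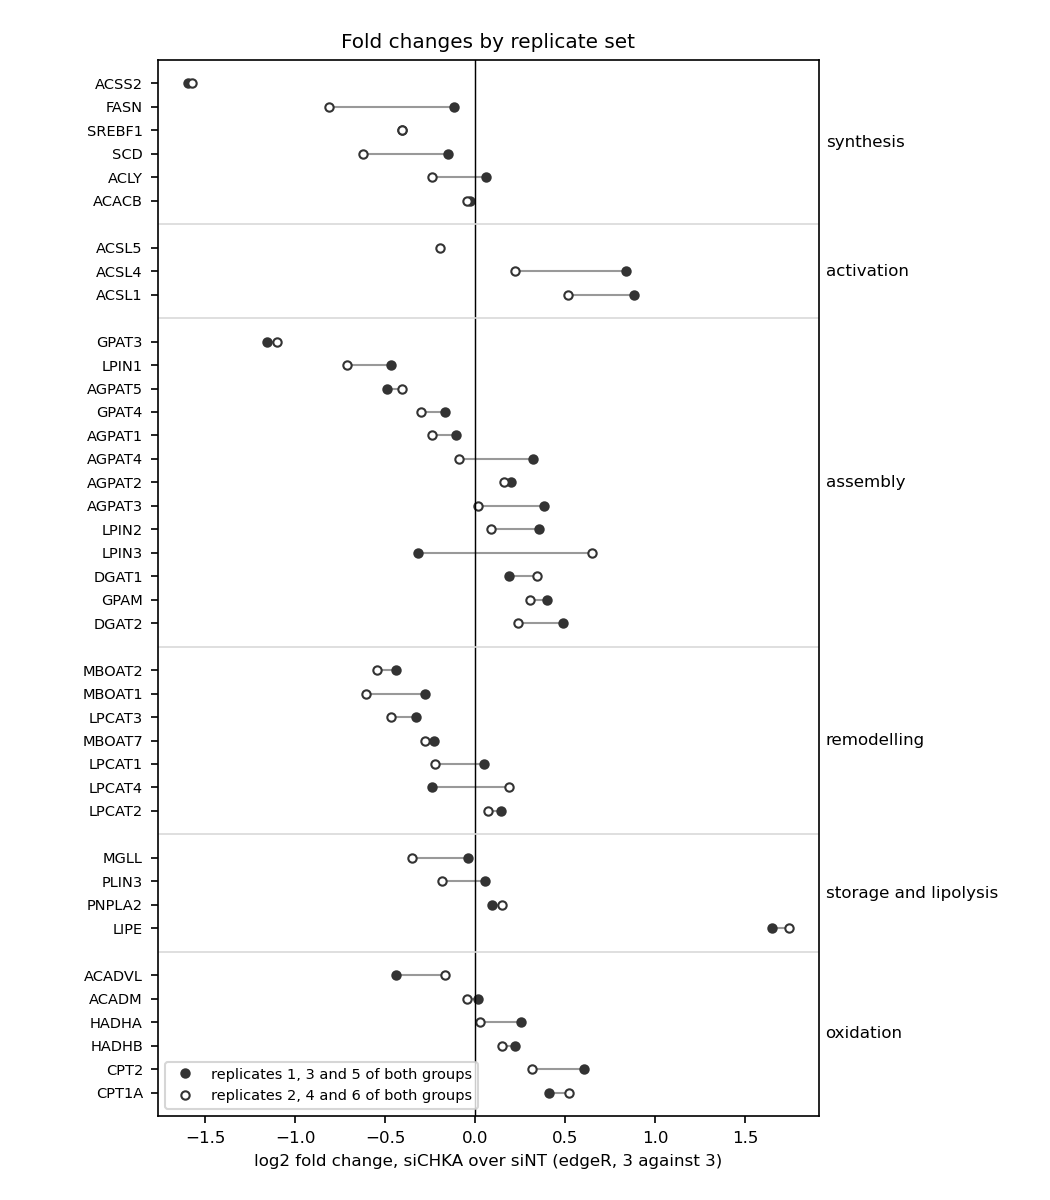
Log2 fold change of siCHKA over siNT fitted with replicates 1, 3 and 5 of both groups (filled) and with replicates 2, 4 and 6 (open), by step. ACSS2, SREBF1, GPAT3 and LIPE have nearly the same value in both, FASN goes from -0.12 to -0.82 and LPIN3 from -0.32 to 0.65. ACSL5 passed the filter in the second set only.

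The levels of the genes differed far more than any change. Levels are compared between genes as CPM per kilobase of exon in siNT. SCD was highest at 274 ± 30.2, followed by FASN at 184 ± 24.6 and ACLY at 177 ± 11.5, which lay within each other's SD, and then ACSL1 at 101 ± 9.46. SREBF1 (73.5 ± 5.04), ACADVL (68.7 ± 3.51), HADHA (62.8 ± 3.19) and CPT1A (56.4 ± 5.17) came next, each less than the sum of both SDs from its neighbour. After siCHKA ACLY (167 ± 17.7), ACSL1 (165 ± 15.7) and FASN (137 ± 40.4) lay within the SD of FASN of each other. CPT1A was at 77.8 ± 2.67 and passed SREBF1, at 55.5 ± 3.17. Among acylating enzymes MBOAT2 was highest in siNT at 36.9 ± 2.29. From 9.47 to 15.1 CPM per kilobase stood 9 genes, AGPAT5, GPAT4, AGPAT1, LPIN1, ACSS2, PNPLA2, GPAM, AGPAT2 and AGPAT3. ACSS2 left that range after siCHKA, at 4.16 ± 0.16. The lowest were GPAT3, ACSL5, LIPE, AGPAT4 and PLIN2, from 0.27 for GPAT3 down to 0.070 for PLIN2.

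**Figure D4:**
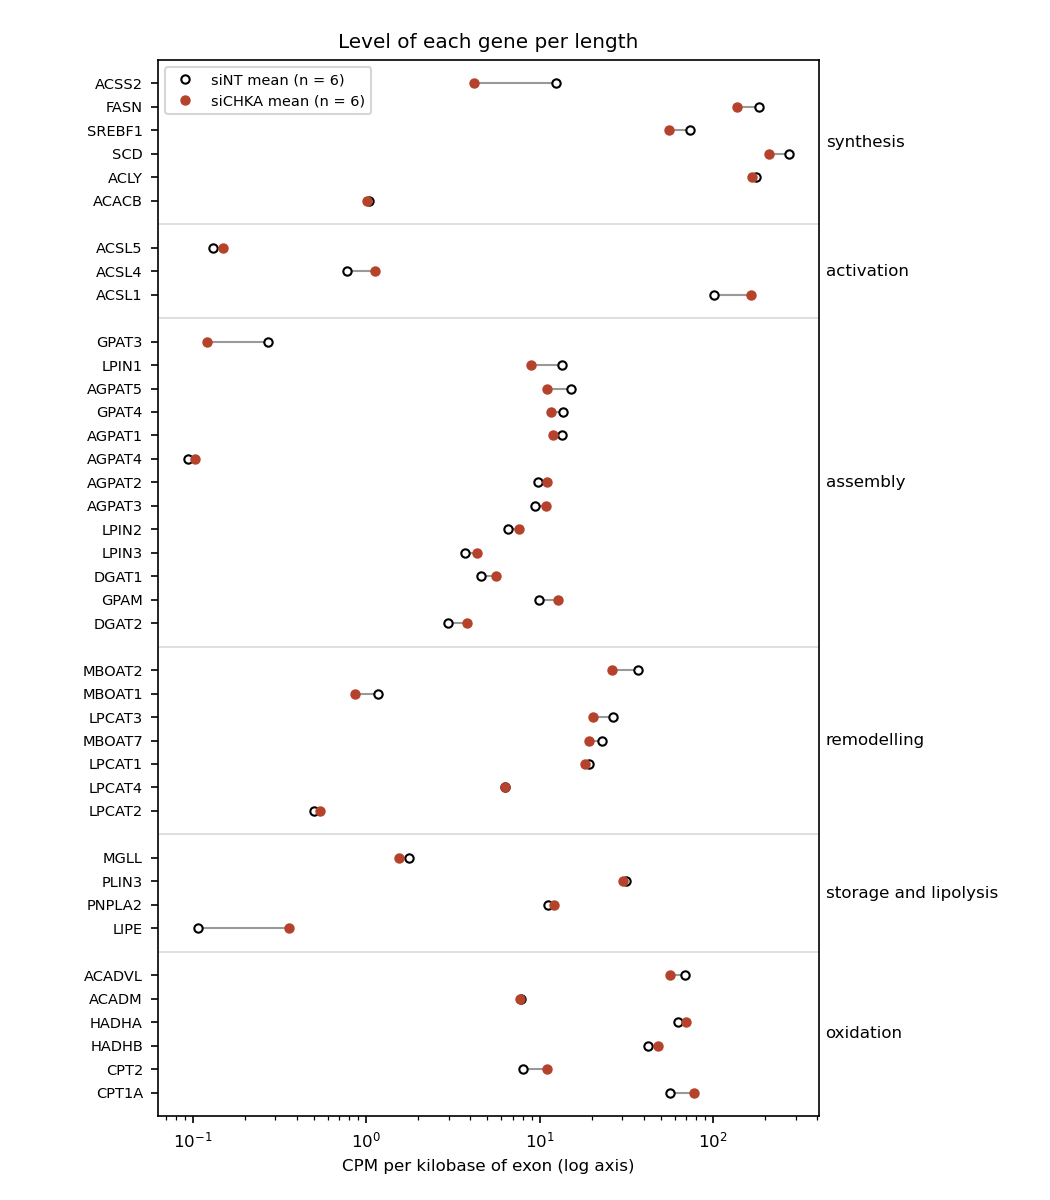
Mean level of each tested gene in siNT (open) and siCHKA (filled) as CPM per kilobase of exon on a log axis, by step, with 6 samples per group. SCD, FASN, ACLY and ACSL1 lie at the high end, GPAT3, ACSL5, LIPE and AGPAT4 at the low end, and for most genes the shift between the groups is small beside the distance between genes.

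A wider list of 99 other genes of the same steps was examined, of which 85 passed the filter, 24 fell (28.2%) and 37 rose (43.5%). Among all tested genes 30.1% were lower and 32.1% higher, shares that also stand beside the step counts that follow. Of the 61 calls in the wider list 41 held in both replicate sets, 9 were lost in replicates 1, 3 and 5 and 12 in replicates 2, 4 and 6. In oxidation 14 of 26 rose and 5 fell. MLYCD, which removes the malonyl-CoA that blocks CPT1A, rose by 0.85 on the log2 scale (21.5 ± 2.06 to 38.9 ± 1.94 CPM, edgeR adjusted p = 5.38e-09), and PPARA, a nuclear receptor that drives fatty acid oxidation genes, rose by 0.78 (42.7 ± 5.47 to 73.5 ± 13.6 CPM), with 1.05 in replicates 1, 3 and 5 and 0.48 in replicates 2, 4 and 6. Its relative PPARD fell, by 0.72 (32.7 ± 2.74 to 19.8 ± 1.29 CPM). So did ACADL, the long-chain dehydrogenase, by 0.93 (25.5 ± 2.55 to 13.4 ± 0.76 CPM). The samples of both groups were apart for all 4 genes.

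Among other genes of synthesis 7 of 18 fell and 5 rose. INSIG1, which holds SREBP precursors in the endoplasmic reticulum, fell by 0.73 (577 ± 75.2 to 349 ± 45.4 CPM, edgeR adjusted p = 3.49e-06), and the glucose-sensing factor MLXIP fell by 0.63. The liver X receptor NR1H3 rose by 0.49 and MID1IP1, which assembles acetyl-CoA carboxylase into filaments, by 0.37. In activation 3 of 12 fell and 4 rose. The fatty acid transport protein SLC27A4 fell by 0.39 and ACSL3 by 0.25 (703 ± 35.8 to 592 ± 56.0 CPM, with -0.12, not past the threshold, in replicates 1, 3 and 5 and -0.39 in replicates 2, 4 and 6), while SLC27A1 rose by 0.44 and the mitochondrial ACSS1 by 0.28 (39.0 ± 4.59 to 47.2 ± 5.93 CPM, edgeR adjusted p = 0.0101). The groups overlapped for ACSS1. ACSS3, another mitochondrial relative of ACSS2, was under the 10 CPM asked of named genes and is given because its values were seen to be the largest rise of the wider list. It went from 1.65 ± 0.26 to 6.88 ± 0.61 CPM (log2 fold change 2.04, SE 0.12, edgeR adjusted p = 1.53e-10), with no overlap. ACSL6, a relative of the listed ACSL genes, was kept out by the same rule and also rose more than SLC27A1. It went from 3.76 ± 0.71 to 11.2 ± 0.97 CPM (log2 fold change 1.56, SE 0.11, edgeR adjusted p = 2.79e-09), with no overlap.

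Other genes of assembly were 4 lower and 7 higher of 13. LCLAT1, a lysocardiolipin acyltransferase, fell by 1.42 (101 ± 7.83 to 37.6 ± 1.96 CPM, edgeR adjusted p = 1.75e-12), a change close in size to that of ACSS2. The lipid phosphatase PLPP3 fell by 0.58 and PLPP2 rose by 0.32, and glycerol kinase, GK, rose by 0.48. In storage and lipolysis 3 of 10 fell and 5 rose. Lipoprotein lipase, LPL, fell by 0.92 (23.1 ± 1.62 to 12.1 ± 2.47 CPM, edgeR adjusted p = 1.67e-06) and HILPDA, an inhibitor of PNPLA2, fell by 0.56 (-0.91 in replicates 1, 3 and 5 and -0.29 in replicates 2, 4 and 6). FITM2, needed for droplet budding, rose by 0.40 and ABHD6 by 0.19, the latter with 0.26 in the first set and 0.11, not past the threshold, in the second. Remodelling had 2 of 6 in each direction. TMEM164, an acyltransferase of ether lipids, fell by 0.75 and the cardiolipin transacylase TAFAZZIN by 0.53, with -0.97 in replicates 1, 3 and 5 and -0.21, not past the threshold, in replicates 2, 4 and 6. The phospholipases PLA2G6 and PLAAT3 rose by 0.64 and 0.55, PLA2G6 with 0.32 and 0.89 in the 2 sets.

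Short words in the 3′ UTR of the transcripts are shown last, since sites of this kind are how short RNAs meet messenger RNAs. An earlier analysis of these same data chose GCCAGAT and TGCCCTT as words associated with lower fold changes, so the directions below are not independent of that choice and were not tested. The sites of the lower genes with the largest falls that hold a word are given with that of GPAM, which rose. All lie in 3′ UTR exons of GENCODE 44 (GRCh38), are written as the transcript reads, and have the word in capitals.
ACSS2, chr20:34927590-34927619, plus strand: gggcatgcactTGCCCTTaaaaacaatgat
ACSS2, chr20:34927683-34927712, plus strand: ttcccttttgtGCCAGATgccagtactgtc
GPAT3, chr4:83604913-83604942, plus strand: gaacctacaggTGCCCTTtttggcttttgt
LPIN1, chr2:11825175-11825204, plus strand: aatcgaggaatGCCAGATgtgcacggtttt
MBOAT1, chr6:20101664-20101693, minus strand: tgctggcttttTGCCCTTcctgcatgattt
FASN, chr17:82078523-82078552, minus strand: ccgtggggtgcTGCCCTTatgcccggcgcc
GPAM, chr10:112151140-112151169, minus strand: catgaaatgcaTGCCCTTcttcaggggaag
Of the 39 tested genes of the list, all with a 3′ UTR in the annotation, 16 held at least one word (5 with GCCAGAT, 13 with TGCCCTT), against 23.6% of 12296 tested genes with a 3′ UTR. Among these 16, 7 fell and 3 rose, with a median log2 fold change of -0.10. Among the 23 without a word, 7 fell and 9 rose, with a median of -0.0015. Over all tested genes the medians were -0.12 with a word and 0.04 without. Of all tested genes 30.1% were lower and 32.1% higher, and these shares were not counted apart for genes with and without a word. The counts of the listed genes are therefore not read as a trait of their own. ACSS2, with the largest fall, held both words, whereas LPIN1, FASN, MBOAT1 and GPAT3 held 1 each and MBOAT2, SREBF1 and AGPAT5, which also fell, held none.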

How the data were processed

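Total RNA from C4-2 cells was the input for libraries of a TruSeq kit, which the study's methods give as an mRNA kit. The libraries were sequenced as single-end reads of 40 bases. Per the labels the RNA came from flow sorted cells. According to the study's methods and the submitters' processing notes, the authors aligned reads to GRCh37 with TopHat 2.0.4 and tallied them per Ensembl gene using HTSeq-count 0.5.3p9. Reads with several alignments or on overlapping genes were not assigned to a gene, and with reads outside genes they made up 33.9% to 39.0% of a sample's alignments. The strand setting is not given in the sources used here. The deposited counts are whole numbers without normalization, in 4 files per sample, which were summed. Groups and replicate numbers came from the labels.

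Identifiers were named through GENCODE 44 (82.8% of 54127), whose GRCh38 coordinates and exon lengths were used. Under R 4.3.3, counts that passed filterByExpr entered edgeR 4.0.16 (quasi-likelihood, TMM, no covariates), and Benjamini-Hochberg adjusted p-values below 0.05 over 14501 genes were called. Standard errors were derived from the F statistic. For single values, log2 CPM (prior count 2) entered two-sided exact permutation tests. Depth was 10685184 to 24246055 reads, and no pair of replicates agreed within sampling noise (lowest chi-square per degree of freedom 2.39). The alternatives were RLE normalization, DESeq2 1.42.0, other filters, a replicate block, replicate sets, each replicate number left out and 1 count file per sample. The edgeR fit was tested on simulated data.

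The genes, the wider list and the searched words were chosen with earlier results of these data known. All genes of the list were named, and those with the largest changes past the threshold, up to 4 per step, were described sample by sample. From the wider list up to 2 genes per direction and step with at least 10 CPM were named, and ACSS3 and ACSL6 were added after their values were seen. GPAM and DGAT1 were also described as partners of those genes. RefSeq promoters (GRCh38.p14) were found for 31 of the 40 genes, and a single window per gene was searched.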

Additional observations from a re-analysis of the deposited data

Results flagged for a closer look

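In 3 of 80 groups of 6 samples examined, 2 for each gene, 1 sample stood farther from the others than Dixon's 95% critical value allows, where chance would flag about 4. ACSL4 was at 10.7 CPM in siNT replicate 4, against 6.71 to 7.98 CPM in the other siNT samples, and this is the sample that made the ACSL4 groups overlap. CPT1A was at 309 CPM in the same library, siNT replicate 4, against 367 to 408 CPM in the others, and without replicate 4 of both groups the log2 fold change of CPT1A was 0.42 in place of 0.47. ACSL5, near the floor, was at 0.888 CPM in siCHKA replicate 5, against 0.532 to 0.646 CPM in the others.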

How the results depend on the processing

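Of 26 called genes of the list, 16 kept their call under each of the 14 alternatives that could be fitted. Of 537 refitted values, 493 kept direction and side of the threshold, 32 lost the call, 11 gained it and 1 reversed, LPIN3 at -0.32 with replicates 1, 3 and 5. That set gave 2 synthesis genes lower. Replicates 2, 4 and 6 gave 2 storage and lipolysis genes lower, 1 activation gene higher and 2 oxidation genes higher. One count file per sample gave 3 assembly genes lower, 0 storage and lipolysis genes higher (LIPE did not pass the filter) and 5 unequal family pairs in place of 14. Without a filter 1 storage and lipolysis gene was lower. Leaving out each replicate number in turn gave 3 to 6 assembly genes higher. The cause of these shifts was not tested. Some of the settings also had fewer reads or samples.

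Deviations from the group means were not shared by samples of one number (correlations from -0.40 to 0.32, 2 of 6 over 0.1), so the numbers do not pair the samples. With a replicate block 14 genes of the list were lower and 12 higher, with AGPAT2 gained and HADHA lost among the higher genes, and 4273 and 4494 of all tested genes were lower and higher. Depth limits ACSL5, GPAT3, LIPE, AGPAT4 and PLIN2, with at most 50 counts in a sample, and at least 10 counts in every sample left GPAT3 and LIPE untested.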
